A study of Mus musculus with 15 samples.

Results

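Expression of 10 genes, the keratins Krt5, Krt14, Krt15, Krt17, Krt6a, Krt7, Krt8, Krt18 and Krt19 with the transcription factor gene Trp63, was described in mouse mammary tumours of 4 models. The genes were chosen by symbol, 6 as basal (Krt5, Krt14, Krt15, Krt17, Krt6a and Trp63) and 4 as luminal (Krt7, Krt8, Krt18 and Krt19), and all 10 were found among the 17271 genes of the table. The models were 2151R with 4 samples, 2208L with 8, 2225L with 2 and T11 with 1, and all 15 carry the strain label BALB/c and the genotype label p53-null, so no sample with p53 serves as a control. Within 2208L the titles mark 4 samples as PBS, 3 as 3day nt and 1 with the library prefix ROSEN. In 2151R the titles mark replicates 3 and 4 as NT and give replicates 1 and 2 tags of their own whose meaning is not stated, and the 2225L samples are titled T-Vivo and ROSEN. The labels do not say whether the samples of a model came from separate animals, so p-values measure the spread between these samples, which may be technical. The ages of the mice are not given in the sources used here.

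Keratins are the intermediate filament proteins of epithelial cells, and a type I keratin pairs with a type II keratin to form the filament. In the mammary gland the inner luminal cells carry the simple keratins Krt8 (type II) with Krt18 and Krt19 (type I), while the outer basal and myoepithelial cells carry Krt5 (type II) with Krt14 (type I). Trp63 encodes p63, a transcription factor of basal cells in stratified and glandular epithelia, and Krt17 and Krt6a are known as keratins induced by injury and in basal-like breast tumours.

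The values are log2 expression values that the authors centred for each gene on a reference level, so a value tells how a tumour compares with other tumours for the same gene, and the levels of different genes cannot be ranked. A difference of 1 log2 unit is a doubling. Differences were tested with limma over all genes, and a gene is called where the Benjamini-Hochberg adjusted p is under 0.05. The table holds no counts, so the sequencing depth is unknown. In bulk tumours, fewer cells of a type and less RNA per cell cannot be told apart.

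The 10 genes lie in 3 places of the genome (GENCODE annotation of GRCm38, the build mm10 that the submitters' processing notes name). Krt15 (chr11:100131758-100135928), Krt19 (chr11:100140810-100148665), Krt14 (chr11:100203162-100207548) and Krt17 (chr11:100256217-100261029) stand in this order in the type I keratin cluster, all on the minus strand. Krt7 (chr15:101411043-101430313, plus strand), Krt6a (chr15:101689910-101694307, minus strand), Krt5 (chr15:101707070-101712898, minus strand), Krt8 (chr15:101996698-102004482, minus strand) and Krt18 (chr15:102028180-102032027, plus strand) stand in the type II cluster, where Krt18 is a type I gene beside its partner Krt8. Trp63 lies alone at chr16:25683763-25892102 on the plus strand.

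Sequence before the start site is shown for Krt5, which had the largest difference of the 10 between 2225L and 2208L, and for the partners Krt8 and Krt18, whose values ran side by side within 2208L. The sequences are from RefSeq (GRCm38.p6), which held promoter windows for 5 of the 10 genes. They read 5′ to 3′ on the strand of the gene, and capitals mark matches to the motifs searched.
Krt5: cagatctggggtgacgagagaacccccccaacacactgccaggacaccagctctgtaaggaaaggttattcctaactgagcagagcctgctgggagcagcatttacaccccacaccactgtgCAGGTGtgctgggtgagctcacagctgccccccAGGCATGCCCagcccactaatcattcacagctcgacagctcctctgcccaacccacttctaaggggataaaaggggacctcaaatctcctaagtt
Krt8: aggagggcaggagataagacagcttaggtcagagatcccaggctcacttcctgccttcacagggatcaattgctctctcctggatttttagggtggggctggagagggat
Krt18: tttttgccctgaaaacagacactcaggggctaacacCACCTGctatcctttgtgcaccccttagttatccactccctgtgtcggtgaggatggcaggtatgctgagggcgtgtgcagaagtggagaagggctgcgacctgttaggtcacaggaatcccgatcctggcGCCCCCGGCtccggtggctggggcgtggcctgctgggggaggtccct

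The Krt5 stretch is chr15:101712906-101713155 (minus strand), the 250 bases before the start. Those of Krt8 (chr15:102004483-102004592, minus strand) and Krt18 (chr15:102027966-102028179, plus strand) end 140 and 36 bases before the RefSeq start, where the GENCODE model of the gene begins. The RefSeq windows of Krt14 and Krt7 start 1518 and 1360 bases inside the annotated gene and are not described. On both strands, 7 motifs were searched in the 250 bases before the RefSeq starts of Krt5, Krt8 and Krt18. The E-box letters CAGGTG (or CACCTG on the other strand) were found in all 3, and 17.2% of all 32851 promoter windows hold them. The match of Krt8 lies 111 to 106 bases before the start, outside the stretch printed. A single p63 decamer (10 bases, a part of the full p63 element and not the whole) was found in Krt5. It lies 95 to 86 bases before the start, and 7.13% of all windows hold such a match. The AP-2 letters GCCNNNGGC were found in Krt18 (13.7% of windows). The Sp1 letters GGGCGG, the TATA letters TATAAA, the AP-1 letters TGANTCA and the Grhl letters AACCGGTT were not in these 3 windows and in 32.7%, 12.4%, 6.75% and 0.116% of all windows. A match describes the letters only, and no matches overlapped.

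**Figure D1:**
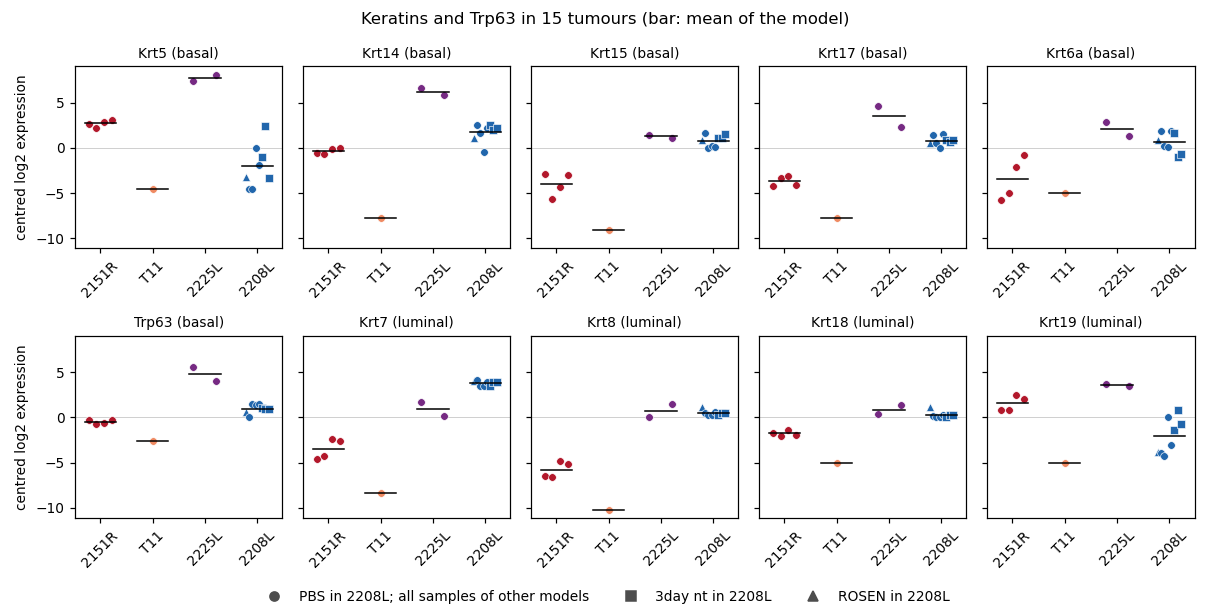
Centred log2 expression (vertical axis) of the 10 genes in each tumour, by model, with the bar at the mean of the model. Within 2208L, circles are PBS, squares 3day nt and the triangle ROSEN samples. T11 lies lowest at 8 of the 10 genes, 2225L lies highest at Krt5, Krt14, Krt17, Trp63 and Krt19, and Krt5 and Krt19 spread widely within 2208L.

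Krt5 and Krt14, the partner keratins of basal cells, did not run in parallel across the models. Krt5 was at 2.70, 2.16, 2.87 and 3.14 in the 4 samples of 2151R, at 7.47 and 8.12 in 2225L and at -4.51 in T11. In 2208L its lowest value was -4.59, its median -2.53 and its highest 2.48. The 2225L samples lay above all others, and 2151R overlapped only the highest sample of 2208L, replicate 7. Replicates 2 and 3 of 2208L share the exact value -4.59, the lowest of the 15, and what a shared exact value stands for is not stated. Krt14 was at -0.58, -0.71, -0.11 and 0.00 in 2151R, at 6.63 and 5.84 in 2225L and at -7.80 in T11. In 2208L it ran from -0.43 (replicate 4) through a median of 2.07 to 2.58. For Krt14 the 2208L samples lay above 2151R except replicate 4, the reverse of the order at Krt5.

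Trp63 followed the order 2225L, 2208L, 2151R and T11, with no overlap between neighbouring models. It was at 5.55 and 4.08 in 2225L, at -0.24, -0.70, -0.66 and -0.32 in 2151R and at -2.60 in T11. In 2208L it ran from 0.00 (replicate 2) through a median of 1.0 to 1.53. The table gives a value for the gene as a whole and does not separate its isoforms.

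Among the other basal keratins, Krt17 had the same order of models as Trp63, again without overlap. Krt17 was at 4.69 and 2.32 in 2225L, from 0.00 through a median of 0.77 to 1.59 in 2208L, at -4.20, -3.31, -3.13 and -4.08 in 2151R and at -7.70 in T11. Krt15, a keratin of basal cells in stratified epithelia, was at 1.47 and 1.07 in 2225L, within its range in 2208L (0.00, median 0.97, highest 1.69). It was at -2.92, -5.66, -4.29 and -2.95 in 2151R and at -9.05 in T11, below both of these models. Krt6a varied most within 2151R, where it was at -5.78, -4.97, -2.15 and -0.73. At that gene replicate 4 of 2151R lay inside the range of 2208L (-1.04, median 0.57, highest 1.87), 2225L was at 2.91 and 1.33, and T11 was at -5.04.

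The luminal keratins Krt7, Krt8 and Krt18 shared a gap between 2151R and 2208L. Krt7, a type II keratin of simple and ductal epithelia, was at -4.57, -4.28, -2.35 and -2.57 in 2151R and at -8.40 in T11. It ran from 3.46 through a median of 3.90 to 4.14 in 2208L, above 1.67 and 0.16 in 2225L. Krt8 was at -6.52, -6.55, -4.84 and -5.15 in 2151R and at -10.20 in T11. In 2208L it ran from 0.22 through a median of 0.47 to 1.21, and the 2225L samples at 0.00 and 1.52 lay on either side of that range. Its partner Krt18 was at -1.68, -2.06, -1.41 and -1.91 in 2151R, at -5.05 in T11, at 0.37 and 1.39 in 2225L and from 0.00 through a median of 0.22 to 1.13 in 2208L.

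Krt19, the smallest keratin and a luminal marker, did not share that pattern. It was at 0.86, 0.83, 2.47 and 2.07 in 2151R, at 3.71 and 3.52 in 2225L and at -5.01 in T11. In 2208L it ran from -4.31 through a median of -2.24 to 0.85, and its highest sample there, replicate 7, lay between replicates 1 and 2 of 2151R. Replicate 7 is also the 2208L sample with the highest Krt5.

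Between 2151R and 2208L, 8 of the 10 genes were lower in 2151R and 2 were higher. Of all 17271 genes, 48.8% were called in this comparison, 22.7% lower and 26.1% higher. Of the basal genes, Krt5 rose and the other 5 fell, and of the luminal genes Krt19 rose and the other 3 fell, so neither side moved in 1 direction. The median difference (2151R minus 2208L) was -3.05 over the basal genes and -4.16 over the luminal genes, beside 0.10 over all genes. The groups did not overlap at 6 of the 10 genes (38.8% of all genes), namely Krt15, Krt17, Trp63, Krt7, Krt8 and Krt18.

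Krt7 had the largest difference of the 10, at -7.23 (SE 0.41, limma adjusted p 9.27e-09), followed by Krt8 at -6.27 (SE 0.36, adjusted p 1.11e-08). Krt18 fell less than its partner Krt8, by 2.04 log2 units (SE 0.24, adjusted p 1.04e-05). Of the basal keratins Krt15 differed by -4.78 (adjusted p 3.47e-06), Krt17 by -4.50 (adjusted p 1.01e-06), Krt6a by -4.02 (adjusted p 0.00212) and Krt14 by -2.08 (adjusted p 0.00261). Trp63 had the smallest difference, -1.47 (SE 0.31, adjusted p 0.00164). Krt5 was higher in 2151R by 4.73 (SE 1.11, adjusted p 0.00314) and Krt19 by 3.61 (SE 0.93, adjusted p 0.00567). Without the 2 samples of 2208L that share an exact value, Krt5 was still called (3.87, adjusted p 0.00705).

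When samples were limited to those titled NT, nt or PBS, 3 of these calls were lost: Krt5 (4.85, adjusted p 0.0537), Krt14 (-1.87, adjusted p 0.0637) and Krt6a (-2.02, adjusted p 0.10), with 2 samples of 2151R left. Against the 3day nt samples of 2208L alone, Krt6a was not called (-3.39, adjusted p 0.0596) and the difference of Krt19 was 2.0. Because 2151R has a block of library numbers to itself, its difference from the other models cannot be told apart from that of the block.

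**Figure D2:**
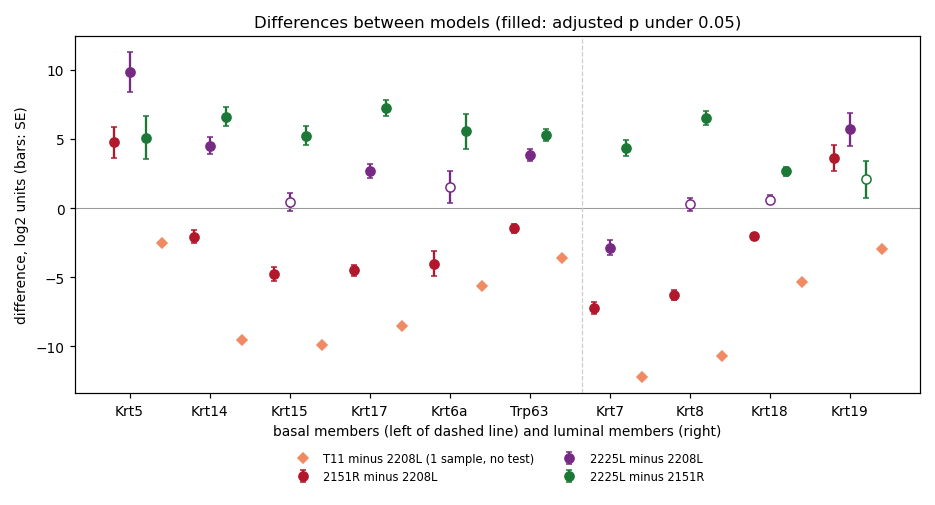
Differences between models in log2 units (vertical axis) for each gene (horizontal axis), with bars for the SE and filled symbols for adjusted p under 0.05. Orange diamonds are the T11 sample minus the mean of 2208L, without a test. Krt5 and Krt19 are the genes above 0 for 2151R minus 2208L, and every difference of 2225L minus 2151R lies above 0.

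Between 2225L and 2208L, 4 of the 6 basal genes were higher in 2225L and none was lower, while the luminal genes were split. In this comparison 32.9% of all genes were called, 15.6% higher and 17.3% lower. Krt5 rose by 9.81 (SE 1.43, limma adjusted p 0.000212), a difference above 99.96% of those of all genes. Krt14 rose by 4.50 (SE 0.61, adjusted p 0.000122), Trp63 by 3.82 (SE 0.40, adjusted p 1.59e-05) and Krt17 by 2.68 (SE 0.53, adjusted p 0.00177). Krt15 (0.45, adjusted p 0.628) and Krt6a (1.50, adjusted p 0.341) did not pass the test. The median difference (2225L minus 2208L) was 3.25 over the basal genes and 0.43 over the luminal genes, beside -0.044 over all genes.

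Of the luminal genes, Krt19 was higher in 2225L by 5.67 (SE 1.19, adjusted p 0.00282) and Krt7 lower, at -2.87 (SE 0.53, adjusted p 0.00111). Krt8 differed by 0.25 (SE 0.47, adjusted p 0.712) and changed sign under other settings, and Krt18 differed by 0.60 (SE 0.31, adjusted p 0.152). Krt18 was called without replicate 1 of 2225L (1.11, adjusted p 0.0348) or without replicate 1 of 2208L (0.72, adjusted p 0.0361). The groups did not overlap at 6 of the 10 genes (31.7% of all genes).

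The 2225L samples carry different library prefixes, CP and ROSEN. Within the CP libraries, which hold 1 sample of 2225L, Krt5 differed by 9.31, Krt14 by 4.81, Trp63 by 4.50, Krt17 by 3.84, Krt19 by 5.52 and Krt7 by -2.09. All 6 passed the test there, in which the lone sample is assumed to vary like the other groups. Krt17 rested on that sample to a larger degree, since without it the difference was 1.50 (adjusted p 0.0481). With sample weights, Krt17, Krt7 and Krt19 were no longer called (2.86, -2.79 and 5.84, adjusted p 0.0532, 0.141 and 0.154).

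Between 2225L and 2151R, 9 of the 10 genes were higher in 2225L and none was lower, with 48.6% of all genes called, 22.8% higher and 25.8% lower. The groups did not overlap at any of the 10 genes, which was so for 62.4% of all genes. The differences of the called genes ran from 2.64 (Krt18, adjusted p 2.89e-05) to 7.19 (Krt17, adjusted p 4.87e-07), with Krt14 at 6.59 and Krt8 at 6.53. Krt19 differed by 2.06 (SE 1.31, adjusted p 0.211) and was called when only the samples of these 2 models entered the fit (adjusted p 0.0241). The call of Krt5 (5.08, SE 1.57, adjusted p 0.0168) was lost without replicate 1 of 2225L (5.40, adjusted p 0.0521), without replicate 2 (4.75, adjusted p 0.097), within the CP libraries (4.75, adjusted p 0.105), with quantile normalization (3.79, adjusted p 0.111) and with sample weights (4.88, adjusted p 0.225). That of Krt6a (5.53, adjusted p 0.00278) was lost with sample weights (4.50, adjusted p 0.244). These comparisons share samples, so they are not independent of each other.

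In T11, which has 1 sample and no test, 8 of the 10 genes had their lowest value of the 15 samples. The exceptions were Krt5, where replicates 2 and 3 of 2208L lay lower, and Krt6a, where replicate 1 of 2151R did. Against the mean of 2208L the luminal Krt7 was at -12.19, lower than all but 0.08% of genes, and Krt8 at -10.71. The basal Krt15 was at -9.88, Krt14 at -9.53 and Krt17 at -8.52. Trp63 (-3.59), Krt19 (-2.96) and Krt5 (-2.49) lay nearest to 2208L. Krt19 and Krt5 were themselves low and widely spread in 2208L, with medians of -2.24 and -2.53 and SDs of 1.98 and 2.44. For Krt5, T11 (-4.51) lay beside the exact value that replicates 2 and 3 of 2208L share (-4.59). Against the mean of 2151R, Krt14 (-7.45), Krt5 (-7.23) and Krt19 (-6.57) differed most, and Krt6a (-1.64) least.

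A mean over the 6 basal genes and another over the 4 luminal genes were taken in each sample, each gene counted from its mean over the 15 samples. The basal mean of the 4 samples of 2151R was -1.55 with an SD of 0.61. For 2225L (n = 2) it was 4.27 with an SD of 0.70, for 2208L (n = 8) 0.47 with an SD of 0.44, and for T11 -6.14. The luminal mean was -1.79 for 2151R with an SD of 0.76, 2.11 for 2225L with an SD of 0.15, 1.19 for 2208L with an SD of 0.47, and -6.60 for T11. Basal minus luminal was 2.77 and 1.56 in the samples of 2225L, from -1.31 to -0.12 in 2208L, from -0.30 to 0.55 in 2151R and 0.46 in T11. By these means 2225L lay above the rest, and the 2151R and 2208L samples overlapped, but the order depended on the mean. With medians over the same genes, basal minus luminal was 3.56 and 0.41 in 2225L, 1.11, 0.82, 0.41 and 1.13 in 2151R and 0.43 in T11, and its highest value in 2208L was 0.21. Then 2225L overlapped 2151R, and 2151R lay above 2208L. No test was made of these means.

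**Figure D3:**
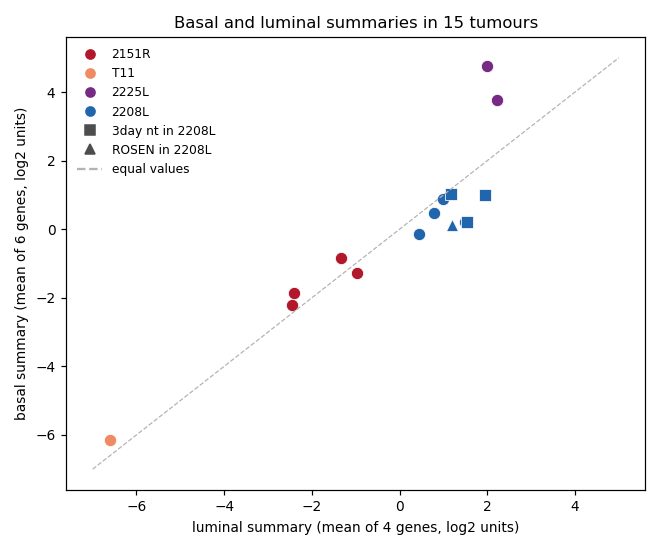
Mean of the 6 basal genes (vertical axis) against the mean of the 4 luminal genes (horizontal axis) in each of the 15 tumours, in log2 units from the mean of each gene, with a dashed line at equal values. The 2225L samples lie furthest above the line, all 2208L samples lie below it, and T11 is lowest in both means.

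Krt8 and Krt18, which form 1 filament pair, followed each other closely within 2208L. Across its 8 samples Pearson's r was 0.992 (exact permutation p 2.48e-05, adjusted p 0.00112 over the 45 pairs of the 10 genes) and Spearman's rho was 1.0 (exact permutation p 4.96e-05, adjusted p 0.00223). Without replicates 1 and 4, the samples furthest from the median of Krt8, r was 0.979. Krt8 minus Krt18 averaged 0.23 over the 8 samples of 2208L, with an SD of 0.066, and -0.12 over the 2 of 2225L, with an SD of 0.35. Its mean was -4.00 for 2151R, with an SD of 0.79, and its value -5.15 for T11, so where the pair was low Krt8 was the lower partner relative to its own reference.

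No other pair passed after adjustment. Krt5 and Krt19 had an r of 0.849 (exact permutation p 0.00759, adjusted p 0.118, n = 8) and a rho of 0.85 (exact permutation p 0.0115, adjusted p 0.172), with an r of 0.583 without replicates 4 and 7. Krt14 and Krt17 had an r of 0.803 (exact permutation p 0.0105, adjusted p 0.118, n = 8) and a rho of 0.905 (exact permutation p 0.00456, adjusted p 0.103), with an r of 0.621 without replicates 1 and 4. Krt15 and Trp63 ran in opposite directions (r -0.825, exact permutation p 0.00905, adjusted p 0.118, n = 8) with a rho of -0.81 (exact permutation p 0.0218, adjusted p 0.245) and an r of -0.702 without replicates 3 and 5. Krt5 minus Krt14 averaged 3.07 for 2151R, with an SD of 0.19 (n = 4), and -3.75 for 2208L, with an SD of 2.86 (n = 8).

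**Figure D4:**
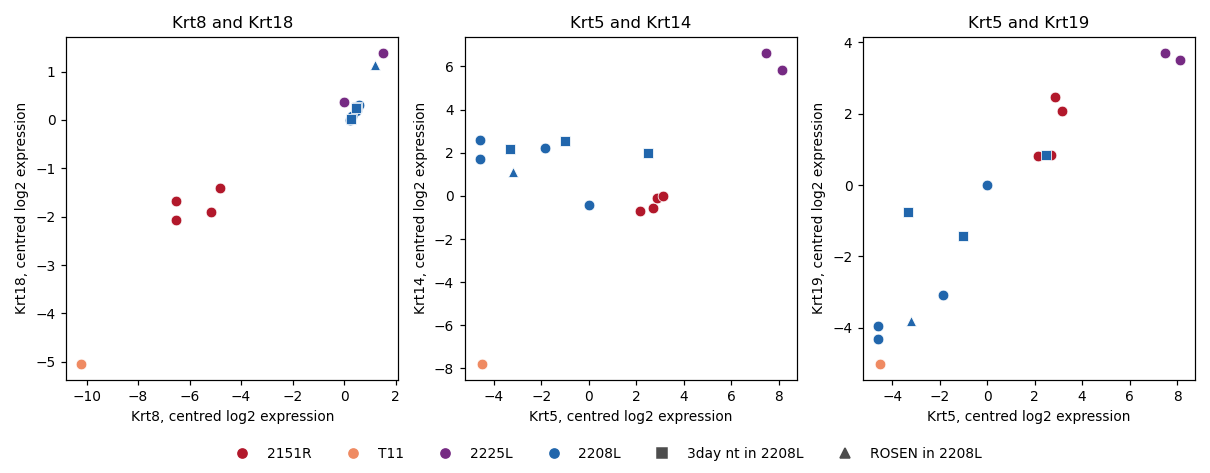
Centred log2 expression of Krt18 against Krt8, Krt14 against Krt5, and Krt19 against Krt5 in the 15 tumours, coloured by model, with squares for 3day nt and a triangle for ROSEN samples of 2208L. Krt8 and Krt18 fall on a narrow line within 2208L, Krt5 and Krt14 do not, and T11 is at the lower left of each panel.

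The likeness of a gene to Krt5, Krt8, Krt18 or Trp63 was measured over the 15 samples by the root mean square difference of the values, each gene counted from its own mean. It describes a shared pattern over 4 models and carries no test. Krt19 was nearest to Krt5, at 1.65 log2 units, where the median gene was at 4.11. After it came Fgfr2, a fibroblast growth factor receptor gene (1.72), Apoc1 (1.83), Foxi1 (1.95) and Trim29 (1.98). Nearest to Krt8 were Cblc (0.43), Kdf1 (0.45), Elf3 (0.46), Grb7 (0.53) and Ripk4 (0.55), where the median gene was at 3.69. Elf3 encodes an epithelial Ets factor, and Grb7 an adaptor protein of receptor tyrosine kinases. Among the nearest to Krt18 were Gstk1 (0.40), Fam83f (0.55), Sytl3 (0.58) and Wwc1 (0.60), where the median gene was at 1.74. Nearest to Trp63 were Ctnnd2 (0.57), Myb (0.71), Sbspon (0.82), Pawr (0.85) and Cdkn1c (0.85), where the median gene was at 2.04. No keratin was among these 5 for Trp63.

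Some neighbouring keratin genes differed in opposite directions in 2151R against 2208L, while others fell together, as Krt8 (-6.27) and Krt18 (-2.04) did. The table holds 18 of the 53 protein-coding keratin genes annotated, 8 on chromosome 11 and 10 on chromosome 15. In 2151R against 2208L, 5 of the 8 fell and Krt19 rose on chromosome 11, and 7 of the 10 fell and Krt5 rose on chromosome 15. Over all genes 22.7% fell and 26.1% rose there. Krt19 (3.61) and Krt15 (-4.78) lie 4.9 kb apart with no keratin gene between them, and Krt5 (4.73) and Krt6a (-4.02) lie 12.8 kb apart likewise. For 2225L minus 2208L, 4 of the 8 rose and none fell on chromosome 11, and 4 of the 10 rose and Krt7 fell on chromosome 15. Over all genes 15.6% rose and 17.3% fell there. Krt15 (0.45) and Krt19 (5.67) were both above 0 in that comparison, as were Krt6a (1.50) and Krt5 (9.81). Of these, Krt15 and Krt6a were not called. Krt71, among those that rose on chromosome 15, has 1 exact value repeated in 6 of the 8 samples of 2208L. Krt5 and Krt19 had the largest differences of their clusters in both comparisons among the genes that were higher.

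**Figure D5:**
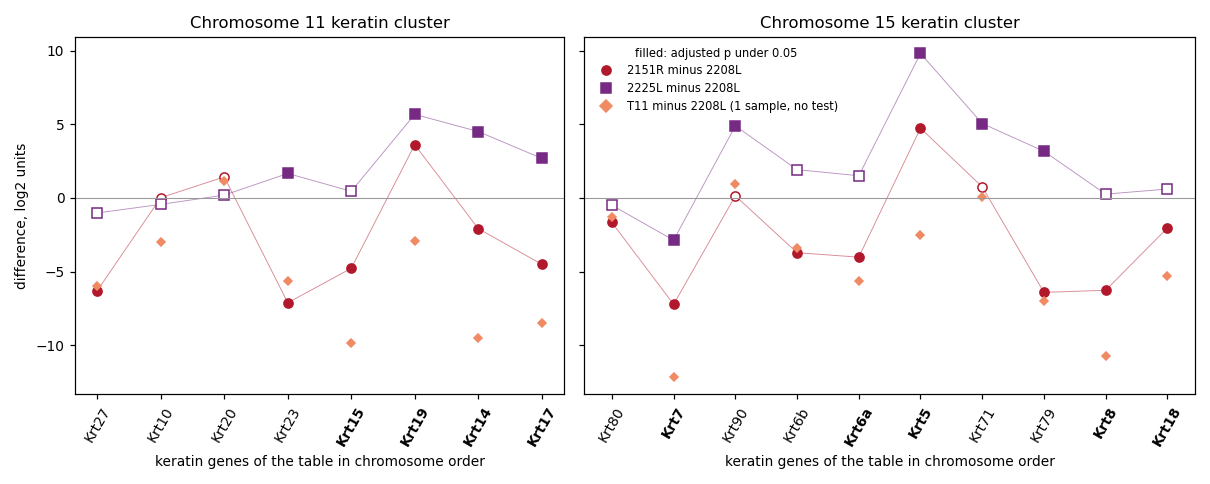
Differences from 2208L in log2 units (vertical axis) for the 18 keratin genes of the table in chromosome order (horizontal axis, genes of the main set in bold), with filled symbols for adjusted p under 0.05 and diamonds for the T11 sample, without a test. Krt19 on chromosome 11 and Krt5 on chromosome 15 stand above their neighbours in 2151R and in 2225L.

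Of 18 other epithelial keratins listed, 6 were in the table. In 2151R against 2208L, where 22.7% of all genes fell, 4 of them fell and none rose, with Krt23 at -7.12 and Krt79 at -6.41. Against the same model 2225L had 2 higher, Krt79 (3.16) and Krt23 (1.66), and none lower, where 15.6% of all genes rose. Krt23 was not called with sample weights (adjusted p 0.148), with quantile normalization (adjusted p 0.122) or without replicate 1 of 2225L (1.26, adjusted p 0.102). Of the 22 hair keratins, 2 were in the table. Krt27 differed by -6.29 in 2151R, where 3 of the 4 samples share an exact value, and Krt71 rose by 5.05 in 2225L against 2208L, where 2208L has 1 exact value repeated in 6 of its 8 samples.

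Some keratin genes have close copies, and how reads were divided between such copies is not stated. Krt6b, the near copy of Krt6a, differed by -3.72 in 2151R against 2208L, where 3 of the 4 samples of 2151R share an exact value, and by 1.92 in 2225L against 2208L (adjusted p 0.0871), beside -4.02 and 1.50 for Krt6a. The pseudogene Krt8-ps, singled out after its values were seen, differed by -5.88 in 2151R against 2208L and by -0.0064 in 2225L against 2208L (adjusted p 0.994), beside -6.27 and 0.25 for Krt8. In PBS against 3day nt samples of 2208L it was higher (0.92, adjusted p 0.0353), where Krt8 was at -0.03 and not called. The values of Krt6a and Krt8 are uncertain to that extent.

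Genes of basal adhesion and known p63 targets were compared as a list of 21, all in the table. In 2151R against 2208L, 14 fell, 5 rose and 2 did not pass (median difference -2.63). Among all genes 22.7% fell and 26.1% rose, so the share of the list that rose is near that of all genes. Genes of the list that fell include the desmosomal cadherin gene Dsg3 (-8.62), the kindlin gene Fermt1 (-7.91), Perp (-5.80) and the laminin gene Lamb3 (-4.70). The 5 that rose, named in full, were Fgfr2 (3.14), Dst (2.34), Trp73 (2.02), Bnc1 (1.77) and Col17a1 (1.74). In 2225L against 2208L, 7 rose and 3 fell (median difference 0.50). Trp73, the paralog of Trp63, was at 7.70 (2 samples of 2208L at a repeated exact value) and Fgfr2 at 7.10. The share of the list that fell is near the 17.3% of all genes, and 15.6% of all genes rose.

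For the lists that follow, 22.7% of all genes fell and 26.1% rose in 2151R against 2208L. The shares in 2225L against 2208L were 17.3% and 15.6%. The proteins that tie keratin filaments to junctions and to the cell edge were a list of 10. In 2151R against 2208L, 7 fell and 2 rose, with the desmoplakin gene Dsp at -6.35 and Fam83h, whose product organizes keratin filaments, at -5.03. Dst fell in 2225L against 2208L (-2.61), the reverse of its direction in 2151R, and Eppk1 rose (1.22). The call of Dst was lost within the CP libraries (-1.95, adjusted p 0.0656), with sample weights (adjusted p 0.0561) and without replicate 2 of 2225L (-1.91, adjusted p 0.0622), and that of Eppk1 in 4 settings (adjusted p 0.0521 to 0.33), among them without replicate 1 of 2225L (0.93, adjusted p 0.123). Of the other intermediate filament genes, 9 of 13 were in the table. In 2151R against 2208L 5 rose and 1 fell, among them the neurofilament gene Nefl (7.36) and the vimentin gene Vim (3.09). For Nefl, 2 of the 8 samples of 2208L are at a repeated exact value, the lowest of that model. Between 2225L and 2208L, Lmnb2 rose (0.99) and Nes (-1.50) and Lmna (-0.86) fell. The call of Nes was lost in 5 settings (adjusted p 0.0569 to 0.198), among them without replicate 2 of 2225L (-1.16, adjusted p 0.177), and that of Lmnb2 with sample weights (adjusted p 0.0513). Of the cornified envelope genes 6 of 16 were in the table, and 4 fell and 1 rose in 2151R, with Calml3 at -4.40 and Sprr1a at 2.04. Sprr1a was not called against the 3day nt samples alone (adjusted p 0.059) or the PBS samples alone (adjusted p 0.0527). Calml3 was the gene of that list that rose in 2225L against 2208L (1.98), a call lost with sample weights (adjusted p 0.134).

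Luminal lineage genes were a list of 16, and 9 fell and 4 rose in 2151R against 2208L (median difference -2.15). Over all genes 22.7% fell and 26.1% rose there, so the share of the list that rose is near that of all genes. The Ets factor genes Elf3 (-6.73) and Ehf (-5.99) fell most, and those that rose include Tbx3 (4.67), the progesterone receptor gene Pgr (4.16) and Gata3 (1.87). In 2225L against 2208L, 2 rose and 7 fell (median difference -0.34), with Spdef at 4.92 and Cd14 at -3.42. The share that rose is near the 15.6% of all genes, and 17.3% of all genes fell. Of the 8 contractile genes of myoepithelial cells, 3 fell and 1 rose in 2151R, a share near the 48.8% of all genes called, with Lmod1 at -1.97 (not called against the 3day nt samples alone, adjusted p 0.059). In 2225L against 2208L, where the basal keratins Krt5 and Krt14 rose, none of the 8 rose and Cald1 fell (-1.60), where 15.6% of all genes rose and 17.3% fell. The call of Cald1 was lost within the CP libraries (adjusted p 0.0951), with sample weights (adjusted p 0.069) and without replicate 2 of 2225L (-1.39, adjusted p 0.0788).

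General epithelial genes fell in 2151R, as 8 of the 10 members did and unlike Krt5 and Krt19. Of 13, 12 fell in 2151R against 2208L (median difference -6.58), with Cldn7 at -8.34 and Cldn3 at -7.33, and none rose. Over all genes 22.7% fell and 26.1% rose there. In 2225L against 2208L 2 rose, among them Prss8 (0.72), and none fell (median difference 0.032). The share that rose is near the 15.6% of all genes, and 17.3% of all genes fell. The mean of this list was from -4.10 to -3.47 in 2151R, from 1.83 to 2.46 in 2208L, 2.16 and 2.76 in 2225L and -7.04 in T11. The samples labelled as mammary tumour thus differ widely in epithelial genes, with T11 and 2151R low, and the part of epithelial content in the keratin differences was not tested.

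Some markers of other cell types differed too. In 2151R against 2208L, where 26.1% of all genes rose, 5 of 6 macrophage markers rose (Msr1 1.97, Cd68 1.83), all 5 endothelial markers rose (Cdh5 1.52, Kdr 1.40), 3 of 8 fibroblast markers rose (Dcn 3.56, Pdgfra 2.10), 2 of 6 adipocyte markers rose and 1 of 5 T cell markers rose, and none of these fell. The adipocyte and T cell shares are near that of all genes. In 2225L against 2208L, where 17.3% of all genes fell, 3 of 6 macrophage markers fell (Msr1 -1.75, not called with sample weights, adjusted p 0.0581). None of the fibroblast, adipocyte, T cell or endothelial markers passed. The mean of the fibroblast markers was from 0.32 to 1.30 in 2151R, from -1.74 to 0.84 in 2208L, -0.81 and -0.72 in 2225L and 0.52 in T11. The mean of the skeletal muscle markers stood high in 3 libraries, replicate 3 of 2151R (5.62) and, from 2208L, replicates 6 (8.95) and 8 (8.38), while the other samples lay from -5.09 to 1.63. Without those 3 libraries, all 10 genes were still called in 2151R against 2208L, in the same directions. The part of the other cell types in the keratin differences was not tested.

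Within 2208L, no member was called by limma between the 4 PBS and the 3 3day nt samples. The PBS titles begin with DH and the 3day nt titles with KM, and each set has its own block of library numbers. A difference of PBS from 3day nt samples therefore cannot be told apart from that of the blocks. In this comparison 34% of all genes were called, 17.4% higher and 16.5% lower in PBS. The groups did not overlap at 44.8% of all genes and at none of the 10. At an unadjusted p under 0.05 the count of members was also 0. On simulated data this comparison recovered 0% of differences of 1 log2 unit and 19% of those of 2. The simulated spread also took in samples of the other models, treated as 1 group. That recovery thus does not measure the power within 2208L. With 4 and 3 samples, a member that was not called here may still differ. Krt19 differed most, at -2.39 (SE 1.11, adjusted p 0.136), then Krt5 at -2.14 (SE 1.67, adjusted p 0.344). Without the 3 libraries high in muscle genes, which leaves 1 sample of 3day nt, these differences were -3.68 and -5.24 and were not called. The luminal Krt7 (-0.02), Krt8 (-0.03) and Krt18 (-0.04) differed by less than their spread. Replicate 2, a PBS sample, had Trp63 at 0.00 where the other PBS samples lay from 1.43 to 1.53, and Krt15 at 1.69 where they lay from 0.00 to 0.26. Without replicate 2, Krt15 was lower in PBS samples (-1.15, adjusted p 0.0154) and Trp63 higher (0.51, adjusted p 0.0309). Without replicate 4, Krt19 was lower in PBS samples (-3.33, adjusted p 0.0203). With sample weights Krt15 (-0.94, adjusted p 0.0306) and Krt6a (1.39, adjusted p 0.0439) were called.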

How the data were processed

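RNA-seq of 15 tumours was analysed from 1 deposited table of log2 values for 17271 genes, with 0 missing values. The submitters' processing notes name STAR, Salmon and mm10, with no versions. The name the authors gave the table states the log2 scale and the median centring. The scaling between samples and the offset before the logarithm are not given in the sources used here. Only 6.51% of genes have a median of exactly 0 here, so the centring set was not these 15 samples alone. In 727 genes at least 2 samples share an exact value. All tests used it as deposited.

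The model named in each title gave its group, with replicates numbered in accession order. Genes were tested with limma 3.58.1 (R 4.3.3), in 1 fit of 15 samples with a mean per model, or in the 7 samples of 2208L titled PBS or 3day nt. P-values were adjusted by Benjamini-Hochberg over all genes, with 0.05 as the threshold. The test was checked on simulated data. Pairs of genes within 2208L were tested by all permutations. As no counts are given, precision comes from the spread between samples alone.

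The 10 genes and the gene lists were chosen with earlier results of these data known. Named genes are the 10 members, the 2 genes of each list with the largest called, non-overlapping difference in 2151R and in 2225L against 2208L, and the 5 genes nearest to 4 members, without predicted genes or genes with a shared exact value. Other genes of a list were named after their values were seen. Alternatives changed the scaling, the variance model, the genes or the samples. Leaving out replicates 2 and 3 of 2208L was chosen after seeing the data. Some genes of the lists are counted but not reported by name here.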

Additional observations from a re-analysis of the deposited data

Results flagged for a closer look

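Single samples stood apart from the rest of their group in 10 of 135 groups of values tested with Dixon's criterion at its 95% critical value. Chance gives about 1 in 20, or 6.8 of 135. Among the PBS samples of 2208L, replicate 2 had the highest Krt15 (1.69, the others from 0.00 to 0.26) and the lowest Trp63 (0.00, the others from 1.43 to 1.53). Replicate 1 of 2208L, the ROSEN library, had the highest Krt8 (1.21, the others from 0.22 to 0.59), Krt18 (1.13, the others from 0.00 to 0.30) and Cldn3 (2.02, the others from 0.91 to 1.24). In 2151R, Krt27 was at -1.25 in replicate 1, while the other samples share an exact value. Krt71 was at -1.11 in replicate 4 of 2208L, which stood apart both in the whole model and among the PBS samples, where most values are an exact repeat. Replicate 5 of 2208L was lowest for Cldn7 among the PBS samples (0.53, the others from 0.96 to 1.0) and for Lmnb2 in the whole model (-1.22, the others from -0.83 to -0.58).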

How the results depend on the processing

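For the 10 genes, 265 of 269 values under the alternatives kept their direction and side of the threshold in 2151R against 2208L, 230 of 239 in 2225L against 2208L, 162 of 169 in 2225L against 2151R and 123 of 149 in PBS against 3day nt. Krt8 in 2225L against 2208L turned to -0.0199 with quantile normalization, -0.41 within the CP libraries and -0.14 with the library prefix as a covariate, and ran from -0.51 to 1.02 with 1 replicate left out. In PBS against 3day nt, centring each sample turned Krt7 to 0.0454, Krt8 to 0.0327 and Krt18 to 0.0274, quantile normalization turned them to 0.86, 0.0782 and 0.0393, and sample weights turned Krt5 to 0.14 and Krt17 to -0.22. With 1 replicate left out, Krt17 ran from -0.17 to 0.36, Trp63 from -0.0059 to 0.51, Krt7 from -0.15 to 0.0765, Krt8 from -0.10 to 0.027 and Krt18 from -0.12 to 0.0105. None of these sign changes was of a called value. With sample weights the genes called higher and lower were 958 and 1200 in 2225L against 2208L (2693 and 2994 without), 2529 and 2723 in 2225L against 2151R (3934 and 4464) and 5938 and 5754 in PBS against 3day nt (3007 and 2857). Without the 3 libraries high in muscle genes, the last comparison had 76 higher and 22 lower, with 1 sample of 3day nt assumed to vary like the PBS samples. With 1 replicate left out it had 1362 to 3988 higher and 1017 to 3111 lower, lowest without replicate 8 (1362 and 1017) and replicate 6 (1723 and 1227), and 1844 and 1780 lower without replicates 2 and 3. With medians over the genes, the luminal value of 2151R was -2.56, its basal minus luminal value 0.87 and the basal value of 2208L 0.97. The causes were not tested. No paired analysis was possible because no replicate number in the titles is shared between groups. Depth is unknown, so precision at low expression cannot be given.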
